A study of Rattus norvegicus with 3 samples.

Results

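Tendon stem/progenitor cells (TSPCs) of the Achilles tendon of 7 day old rats (TSPCs-7d) were compared with those of 56 day old rats (TSPCs-56d), with 1 microarray for each. The comparison is the ratio of the signals of these arrays for each gene, a gene being represented by its brightest probe set, the group of short probes that reads one transcript. In this way 14217 genes were compared, from 31042 probe sets. The series holds 3 arrays in all, and the array of TSPCs from 1 day old rats (TSPCs-1d) is given beside them as a further measured age. Throughout, the 3 signals of a gene are given in the order TSPCs-1d, TSPCs-7d and TSPCs-56d, in linear intensity units, and every fold is that between TSPCs-7d and TSPCs-56d.

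The study used Sprague-Dawley rats. For each age the tendons of at least 2 animals were used, the cells that grew out were selected by plating at low density, and RNA was taken at passage 2, so each culture holds many clones and no longer the tissue itself. No treatment is named for any of the 3 cultures, which shared the same medium, low glucose DMEM with fetal bovine serum (10%) and antibiotics. The study asked how TSPCs of different developmental stages differ in self-renewal, proliferation and differentiation, and used the arrays to look for genes that set TSPCs-7d apart.

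Tendon is a cord of collagen fibrils built by few cells. In the first weeks after birth these cells divide and lay down thin fibrils, and later the cells rest while small leucine-rich proteoglycans, glycoproteins and crosslinking enzymes shape thicker fibrils. Cells grown from tendon keep a fibroblast character, and such cells can also secrete cytokines, complement proteins and growth factor antagonists.

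There was 1 array per age, so no difference has a replicate check, no test was made, and array, culture and age cannot be told apart. In RNA of a whole culture, fewer cells of a type and less RNA per cell cannot be told apart either. Over all probe sets the arrays had median signals of 107, 108 and 114. A signal was called dim when it lay below 48.9, which is the 25th percentile over the 3 arrays. Where the weaker signal of a gene was dim, it was raised to that level and the fold is given as "at least", while counts use the ratio as measured, dim signals included. For 1719 genes with exactly 2 probe sets above the median of all signals, the log2 ratios of the pair differed by a median of 0.14, and 1 in 10 of these genes differed by more than 0.44.

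Most genes were alike on the arrays of TSPCs-7d and TSPCs-56d. The log2 ratio of TSPCs-7d over TSPCs-56d had a median of −0.05 over all genes, and its 5th and 95th percentiles were −0.61 and 0.58. Of the 14217 genes, 13675 (96.2%) lay within 2-fold. The signal was more than 2-fold higher in TSPCs-7d for 298 genes (2.1% of all genes) and more than 2-fold lower for 244 (1.72%), together 542 (3.81%). Genes of 3 cell cycle lists (mitosis, DNA replication and DNA repair) made up 97 of the 298 higher genes and 0 of the 244 lower ones. A ratio of more than 4-fold was seen for 31 genes on the higher side and 47 on the lower side, and 0 of these 78 genes was on a cell cycle list. The genes past 4-fold included genes of the matrix, transcription factors, imprinted genes and a muscle gene on the higher side, and genes of the matrix, of immunity, of growth factor signalling and of muscle on the lower side.

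**Figure D1:**
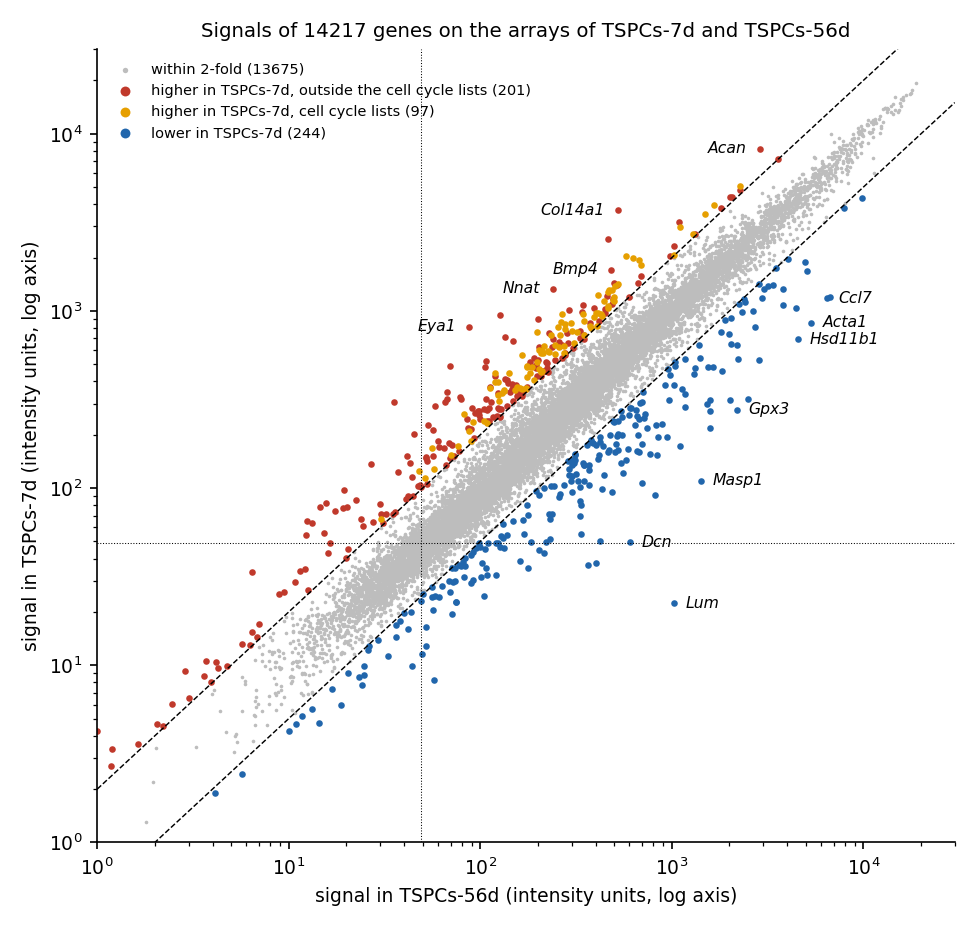
Signal of each of 14217 genes in TSPCs-7d (vertical, intensity units, log axis) against TSPCs-56d (horizontal, intensity units, log axis), 1 point per gene. Dashed lines mark 2-fold and dotted lines the dim level of 48.9. The 97 higher genes of the cell cycle lists lie close along the upper dashed line, whereas Eya1, Nnat and Col14a1 above it and Lum, Masp1 and Dcn below it lie farther out.

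Several markers of tendon fibroblasts had clear signals on all arrays. Scleraxis (Scx), the transcription factor of tendon progenitors, had signals of 2255, 2578 and 2569. Col1a1 and Col1a2, the chains of type I collagen, had 14491, 14736 and 14286 and 18751, 19315 and 18760.3. These signals were nearly the same at each age. The tendon glycoprotein gene Thbs4 had 76.5, 339.6 and 348, so it was low in TSPCs-1d and level between the other cultures. Fibromodulin (Fmod), a proteoglycan that regulates fibril growth, was 1.90-fold higher in TSPCs-7d (271, 774 and 408), short of the cutoff. Tenomodulin (Tnmd), a membrane protein of maturing tenocytes, had signals of 543, 351 and 158, 2.23-fold higher in TSPCs-7d. Of 27 genes on a list of tendon factors and tendon matrix, 4 were higher in TSPCs-7d (Eya1, Col14a1, Fibin and Tnmd) and 5 lower (Lum, Dcn, Mfap5, Cpxm2 and Wif1), with a median log2 ratio of −0.05. Lum was dim in TSPCs-1d and TSPCs-7d, and Dcn was dim in TSPCs-1d and close to dim in TSPCs-7d.

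The surface markers of mesenchymal stem cells that the study found on its cells, CD29, CD44 and CD90, had clear signals on all arrays. Itgb1 (CD29) had signals of 9072, 8999.8 and 9797, Cd44 1385, 1293 and 1331 and Thy1 (CD90) 5077, 5379.6 and 7201. Ptprc, which encodes the leukocyte antigen CD45, was dim throughout (20.8, 25 and 30.6). Of 20 genes on the stem cell marker list, nestin (Nes) lay just past the cutoff as 2.00-fold higher in TSPCs-7d (356, 330 and 165). Nt5e (CD73) was 2.24-fold lower (41.9, 49.3 and 110.2) and Anpep (CD13) 2.56-fold lower (81.3, 135 and 346). The signal of Nt5e was dim in TSPCs-1d and close to dim in TSPCs-7d, and 3 of the 20 genes were dim on every array.

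Of 14 endothelial and 11 erythroid markers, 0 passed 2-fold, and Pecam1 (23.3, 18 and 22.9) was dim. The skeletal muscle regulators Myod1 (23.6, 29 and 32.5) and Myog (44.6, 56 and 54.8) were dim or close to it. So were the keratin genes Krt5 (40.1, 42.3 and 63.2) and Krt14 (59.9, 56.1 and 64.8), the epithelial marker Epcam (23.4, 31.3 and 34.3), the adipocyte gene Adipoq (52.4, 40.2 and 59.4) and the osteoblast gene Bglap (34.4, 33.8 and 30.3). The cartilage collagen gene Col2a1 stayed low as well (66.9, 61.6 and 72.3). Of 21 leukocyte markers, 0 were higher and 2 were lower in TSPCs-7d, Cd4 (127, 45.2 and 106) and Adgre1, the latter dim on all arrays. The signals of the leukocyte list summed to 1541, 1460.2 and 1814, and 9 of its 21 genes were dim on every array. Those of the skeletal muscle list summed to 2661, 1816 and 6459, of which Acta1 alone gave 1772, 855 and 5327. Those of the chondrocyte list summed to 12225, 13496 and 5909.6, of which Acan gave 8588, 8224 and 2874.

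The cell cycle genes past the cutoff lay on one side, and the log2 ratios over the 3 lists ran from −0.20 to 1.96. Of 176 measured genes on the 3 lists, 97 were past 2-fold on the higher side and 0 on the lower, against 2.1% and 1.72% of all genes, and 171 of the 176 had a log2 ratio above 0. The mitosis list had the largest share past the cutoff: 70 of 91 genes were higher, with a median log2 ratio of 1.32. DNA replication (19 of 58 higher, median 0.85) and DNA repair (8 of 27 higher, median 0.86) had many members just under the cutoff. The motor proteins give an example. Of 32 measured kinesin genes, 10 were higher and 0 lower, and these 10 are known from cell division, led by Kif20b (354, 961 and 266), Kif15 (147, 395 and 119.5) and Kif18b (250.2, 605 and 204). In each of them the signal of TSPCs-1d lay nearer to that of TSPCs-56d than to that of TSPCs-7d. Further genes that act in dividing cells but stood on none of the 3 lists, picked after their values had been seen, were the proliferation antigen Mki67 (324, 1079 and 344), the histone methyltransferase Ezh2 (278, 631 and 259) and the histone variant H2az1 (3986, 7224 and 3570.5). On the same arrays, 73 genes of mitochondrial ribosomal proteins had 0 members past 2-fold and 61 with a log2 ratio above 0, with a median of 0.18. The family of 234 zinc finger proteins had 0 members past 2-fold and a median of 0.01.

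**Figure D2:**
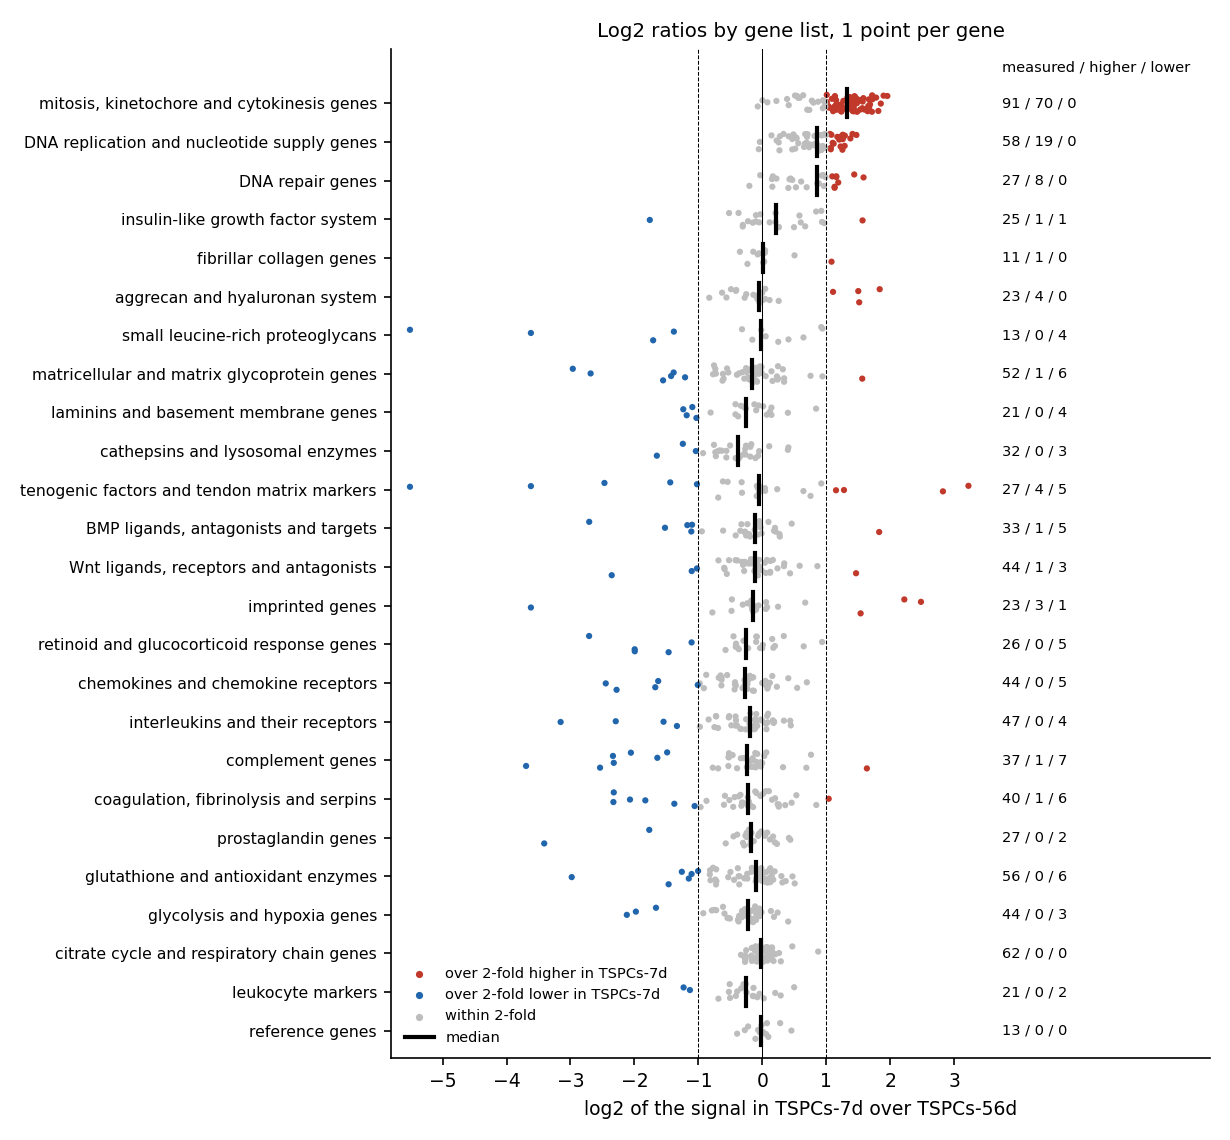
Log2 ratio of the signal in TSPCs-7d over TSPCs-56d (horizontal) for the genes of 25 lists (vertical), 1 point per gene, with the list's median as a black bar and dashed lines at 2-fold. Numbers give the genes measured, higher and lower. The mitosis list has a median of 1.32, and the DNA replication and DNA repair lists have medians of 0.85 and 0.86. The medians of the other lists lie between −0.37 and 0.21, and in most of them a few genes stand far out.

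The promoters of some of these genes are shown because the cell cycle genes past the cutoff lay on one side, and because their sequences carry motifs known from such promoters. RefSeq promoters of rat assembly GRCr8, 250 bases before to 50 bases after the annotated start, were matched by gene ID for 11700 of the 14217 genes. In each, 10 short motifs were searched on both strands. The CHR element (TTTGAA) is the site of the complex that times mitotic genes, the CCAAT box (CCAAT) binds NF-Y, and E2F factors bind TTCCCGC and TTGGCGC. The second E2F form can share bases with a CCAAT box read on the other strand. The lines give the 150 bases before the start, 5′ to 3′ on the gene's strand, in lower case with the CHR elements and CCAAT boxes in capitals for the 4 mitotic genes Cdc20 (activator of the anaphase-promoting complex), Cdk1 (the mitotic kinase), Top2a (DNA topoisomerase II) and Hmmr (a hyaluronan receptor that also acts at the spindle).
Cdc20: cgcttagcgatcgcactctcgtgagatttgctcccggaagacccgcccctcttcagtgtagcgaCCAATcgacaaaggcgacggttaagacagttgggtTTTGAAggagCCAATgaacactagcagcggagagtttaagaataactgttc
Cdk1: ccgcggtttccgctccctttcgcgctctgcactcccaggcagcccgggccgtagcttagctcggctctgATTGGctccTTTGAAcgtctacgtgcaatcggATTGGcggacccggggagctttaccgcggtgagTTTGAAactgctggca
Top2a: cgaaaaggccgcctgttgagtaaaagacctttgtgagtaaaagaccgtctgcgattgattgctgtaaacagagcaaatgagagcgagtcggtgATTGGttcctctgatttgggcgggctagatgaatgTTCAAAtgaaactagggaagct
Hmmr: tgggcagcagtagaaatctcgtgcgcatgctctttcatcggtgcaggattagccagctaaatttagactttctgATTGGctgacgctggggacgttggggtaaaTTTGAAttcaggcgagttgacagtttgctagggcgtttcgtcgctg
The positions are chr5:137255800-137255949, minus strand (Cdc20), chr20:19265143-19265292, plus strand (Cdk1), chr10:84473094-84473243, minus strand (Top2a) and chr10:25665216-25665365, minus strand (Hmmr). In Cdc20 the CHR element began 51 bases before the start and the CCAAT boxes 86 and 41 bases before it. In Cdk1 there was a CHR element at 72 and another at 16 bases, with CCAAT boxes at 81 and 49. In Top2a the CHR element, read on the other strand, began at 22 bases and the CCAAT box at 57, and in Hmmr they began at 46 and 76. The signals of these genes were 281, 731 and 262 for Cdc20, 1751, 3961 and 1663 for Cdk1, 218, 579 and 213 for Top2a and 214, 593 and 209 for Hmmr, that is 2.79-fold, 2.38-fold, 2.72-fold and 2.83-fold higher in TSPCs-7d. Of the other probe sets of Cdc20, those that were not dim gave 1.09-fold and 1.18-fold. Those dim on every array gave 2.83-fold (10.9, 23.3 and 8.22) and 1.04-fold the other way (18.5, 21.8 and 22.6).

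For the replication genes Mcm6 and Mcm5, subunits of the helicase that unwinds DNA at origins, the capitals mark the E2F sites and CCAAT boxes in the same 150 bases.
Mcm6: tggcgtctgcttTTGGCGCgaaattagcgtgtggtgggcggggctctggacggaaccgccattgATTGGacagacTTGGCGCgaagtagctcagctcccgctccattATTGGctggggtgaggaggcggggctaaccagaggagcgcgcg
Mcm5: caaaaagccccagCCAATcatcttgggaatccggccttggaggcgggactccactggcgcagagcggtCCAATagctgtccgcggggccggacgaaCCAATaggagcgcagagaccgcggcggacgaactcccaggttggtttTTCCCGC
These stretches are chr13:42404353-42404502, minus strand (Mcm6) and chr19:13488663-13488812, plus strand (Mcm5). Mcm6 held TTGGCGC at 138 and 75 bases before the start, and Mcm5 held TTCCCGC at 7 bases. Their signals were 239.7, 804 and 379.7 for Mcm6 and 307, 927 and 393 for Mcm5, 2.12-fold and 2.36-fold higher in TSPCs-7d.

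On the other side of the comparison, 3 genes with a TATA box (TATAAA, in capitals) are shown, since this motif had the widest gap, in percentage points, of the motifs found more often among the lower genes than among all genes: the chemokine gene Ccl7, the interleukin gene Il1a and the metallothionein gene Mt2A.
Ccl7: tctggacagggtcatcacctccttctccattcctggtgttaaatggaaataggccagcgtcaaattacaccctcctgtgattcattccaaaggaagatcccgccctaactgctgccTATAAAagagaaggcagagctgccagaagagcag
Il1a: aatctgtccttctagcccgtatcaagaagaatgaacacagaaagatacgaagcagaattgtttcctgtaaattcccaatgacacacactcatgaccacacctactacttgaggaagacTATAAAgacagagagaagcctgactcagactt
Mt2A: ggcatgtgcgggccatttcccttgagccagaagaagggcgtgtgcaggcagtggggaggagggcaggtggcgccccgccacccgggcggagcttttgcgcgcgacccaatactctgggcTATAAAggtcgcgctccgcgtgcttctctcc
These stretches are chr10:67513945-67514094, plus strand (Ccl7), chr3:136990018-136990167, minus strand (Il1a) and chr19:10838709-10838858, minus strand (Mt2A), with the motif at 34, 32 and 31 bases before the start. All 3 had their highest signal in TSPCs-56d (1058, 1182 and 6449 for Ccl7, 171, 157 and 767 for Il1a and 593, 476 and 1314 for Mt2A).

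Over the whole set, TTTGAA was found in 48.2% of the promoters of the 83 cell cycle genes that were higher in TSPCs-7d, in 19.7% of the 157 other higher genes, in 5.95% of the 185 lower genes, and in 12.3% of all 11700 genes (18.1% of the 27457 promoters in the RefSeq table). The CCAAT box was in 65.1%, 48.4%, 36.2% and 37.3% of these groups in the same order (37.7% of the table). TTCCCGC was in 19.3%, 8.28%, 2.7% and 7.55%, and TTGGCGC in 15.7%, 4.46%, 3.24% and 3.97% (4.47% and 2.43% of the table). TATAAA was in 6.02%, 11.5%, 15.1% and 8.45% (14.3% of the table). The AP-1 site (TGANTCA) was in 9.19% of the lower genes and 5.43% of all genes, and the SP1 box (GGGCGG) in 49.2% and 57.5%. The cAMP response element (TGACGTCA) was in 0.541% and 2.85%, the E-box (CACGTG) in 4.86% and 8.94%, and the interferon response element in 5.41% and 2.99%. The cell cycle lists differed among themselves when all their genes were taken, past the cutoff or not. TTTGAA was in 61.5% of the promoters of the mitosis list and in 13.5% of those of the replication list. TTCCCGC was in 11.5% and 38.5% of them. All these shares are counts of letters in a window of fixed length, and whether a factor binds there was not measured.

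**Figure D3:**
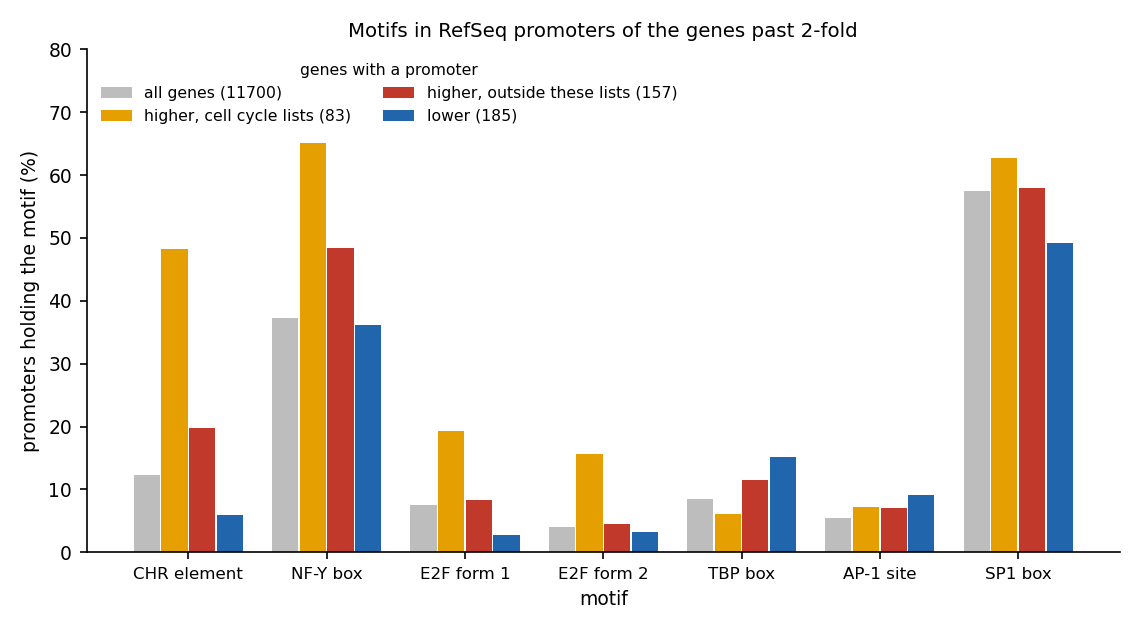
Share of RefSeq promoters (vertical, percent) that hold each of 7 motifs (horizontal), for all genes of the arrays, the cell cycle genes and the other genes higher in TSPCs-7d, and the lower genes. The NF-Y and TBP boxes are the CCAAT and TATA boxes of the text. The CHR element was in 48.2% of the promoters of the higher cell cycle genes and in 5.95% of those of the lower genes.

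Outside the cell cycle, 201 genes were higher in TSPCs-7d (1.43% of the 14041 genes outside the lists) and 244 lower (1.74%). The most prominent matrix gene on the higher side was Col14a1, a collagen that sits on fibril surfaces and limits their growth in young tendon. Its signals were 765, 3702 and 522, so it was 7.09-fold higher in TSPCs-7d (4.87-fold in its other probe set) and lowest in TSPCs-56d. Cthrc1, a secreted protein of matrix-forming fibroblasts, was 4.56-fold higher (268, 674 and 148). Col11a1, a minor fibrillar collagen chain that starts thin fibrils, was 2.12-fold higher (2256, 3814 and 1799.7). It was the one fibrillar collagen past the cutoff among 11 measured, and the chains of types I, III and V differed by at most 1.10-fold, except Col5a3 (1.42-fold higher).

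The aggrecan and hyaluronan system was represented on the higher side by 4 of 23 genes (17.4%, against 2.1% of all genes). On the lower side it had 0. The median log2 ratio of the list was −0.06, with 14 of the 23 genes below 0. Aggrecan (Acan), the large proteoglycan that holds water in cartilage and in the compressed parts of tendon, had signals of 8588, 8224 and 2874, 2.86-fold higher in TSPCs-7d. Link protein (Hapln1), which ties aggrecan to hyaluronan, was 3.57-fold higher (399.8, 428 and 119.8), and another probe set gave 4.01-fold. The TSPCs-1d signals of both genes were close to those of TSPCs-7d. Tnfaip6, a hyaluronan-binding protein, was 2.15-fold higher (3128, 1435 and 666). The fourth gene, Hmmr, also stands on the mitosis list. Of 16 chondrocyte markers, Acan, Hapln1 and Col11a1 were higher and 0 lower. The list as a whole was level, with a median log2 ratio of −0.02 and 8 of the 16 genes below 0. On both arrays 5 of them were dim.

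Elastic fibre genes split. Mfap4 was 2.82-fold higher in TSPCs-7d (321, 393 and 139) and fibrillin 2 (Fbn2), the fibrillin of fetal tissue, 2.42-fold higher (381, 216 and 89.5). Mfap5, a microfibril protein, was 5.53-fold lower (262, 1205 and 6668), and its signal was lowest in TSPCs-1d. The collagenase gene Mmp13 was 2.21-fold higher in TSPCs-7d (193, 240.3 and 109), whereas Timp3, an inhibitor of metalloproteases bound to the matrix, was 3.21-fold lower (656, 483 and 1550.3), and its other probe sets gave 1.60-fold, 3.51-fold and 3.04-fold.

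Most matrix genes past the cutoff were lower in TSPCs-7d. Over the 11 matrix lists, 12 of 272 genes were higher (4.41%) and 21 lower (7.72%). Of 13 small leucine-rich proteoglycans, 4 were lower and 0 higher. Lumican (Lum) was at least 20.9-fold lower (22.9, 22.4 and 1021) and decorin (Dcn) 12.3-fold lower (22.4, 49.4 and 607). Beside these proteoglycans of the fibril surface, Prelp, which anchors fibrils to basement membranes, was 3.26-fold lower (60.0, 102 and 333), and podocan (Podn) 2.61-fold lower (293, 201 and 525). Osteoglycin (Ogn, 2069, 2630 and 1369) and Fmod had their highest signal in TSPCs-7d. The family thus held members with the highest signal in either culture, and its median log2 ratio was −0.02.

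The glycoproteins that modify cell and matrix contact gave 6 lower genes of 52 and 1 higher, the dim Edil3. Fndc1, which contains fibronectin domains, was 7.80-fold lower (546, 319.8 and 2495). Ccn3, a matricellular protein that restrains proliferation in several cell types, was 6.43-fold lower (796, 314 and 2020.3). Thrombospondin 2 (Thbs2) was 2.69-fold lower (285, 741 and 1991) and tenascin N (Tnn), a tenascin of bone and dense connective tissue, 2.31-fold lower (975, 1378 and 3182). In these genes TSPCs-56d carried the highest signal of the 3 cultures. Basement membrane genes followed with 4 lower and 0 higher of 21, among them the laminin chains Lamb1 (2.35-fold lower, 1536, 982 and 2311) and Lama4 (2.04-fold lower, 999, 1099 and 2245), and Col15a1 (2.27-fold lower, 535, 1331 and 3020.3).

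Enzymes that make or remodel collagen were level apart from 2 of 25, both lower in TSPCs-7d: the prolyl hydroxylase P4ha2 (2.67-fold, 1240.4, 996 and 2657; 1.43-fold in its other probe set) and transglutaminase 2 (Tgm2, 2.93-fold, 131, 109.9 and 322). Of the lysosomal proteases, cathepsin K (Ctsk), a protease that degrades collagen, was 2.37-fold lower (480.4, 762 and 1803), and Ctsz 3.14-fold lower (146, 160.2 and 502). The list of cathepsins and lysosomal enzymes had the lowest median log2 ratio of the 71 lists outside the cell cycle (−0.37), with 3 of 32 genes lower and 0 higher.

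**Figure D4:**
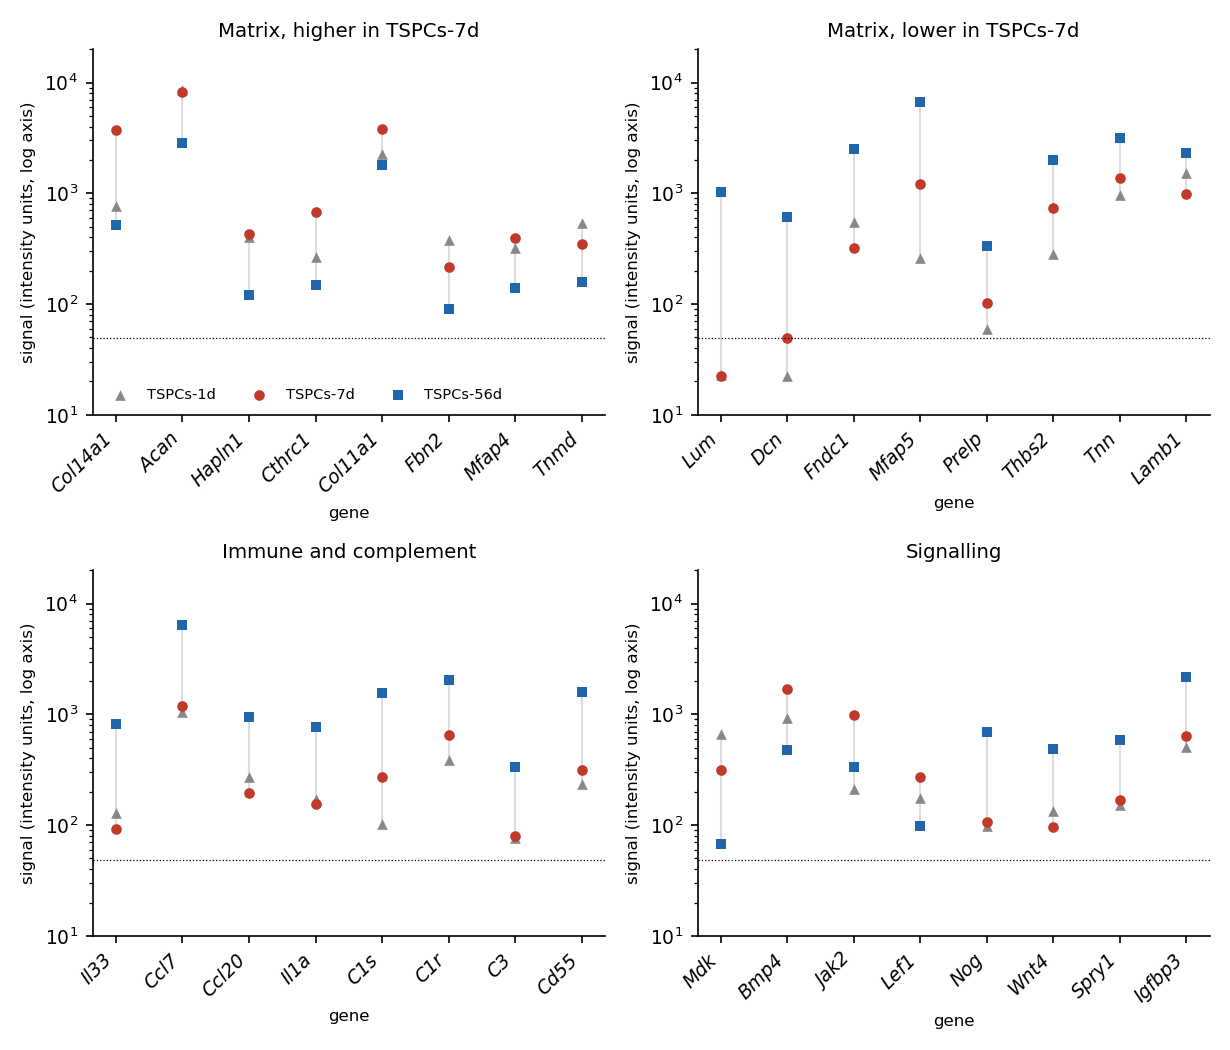
Signals (vertical, intensity units, log axis) of 32 named genes in 4 panels, with TSPCs-1d as triangles, TSPCs-7d as circles and TSPCs-56d as squares, 1 array each. The dotted line is the dim level of 48.9. The panel of immune and complement genes has TSPCs-56d on top for all 8 genes, with Ccl7 reaching 6449. These 8 were picked among the genes past 2-fold lower in TSPCs-7d, so TSPCs-56d lies above TSPCs-7d by choice.

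Growth factor signalling differed mainly in ligands and in their secreted antagonists. Bmp4, a bone morphogenetic protein that patterns limb and tendon attachment, had signals of 929, 1703 and 479, 3.55-fold higher in TSPCs-7d. Of the antagonists of this family, 3 were lower in TSPCs-7d: noggin (Nog) 6.53-fold (98.8, 107 and 699), gremlin 1 (Grem1) 2.25-fold (6279, 4359 and 9821) and Nbl1 2.16-fold (804, 644 and 1390). Bmp6 was 2.87-fold lower too (128, 250.2 and 718), although its other probe sets gave 1.19-fold, 1.27-fold and 1.86-fold. Of 33 genes of the BMP list, 1 was higher and 5 lower, and the antagonist Chrd (260.3, 280.2 and 351) and the target genes Id1 (1339, 1768 and 1466) and Id2 (1250.2, 1479 and 2261) stayed within 2-fold.

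Midkine (Mdk), a heparin-binding growth factor of embryonic tissue, was 4.71-fold higher in TSPCs-7d and highest in TSPCs-1d (670.1, 317 and 67.3). Fgf13, a member of the fibroblast growth factor family that stays inside the cell, was 2.83-fold higher (214, 172 and 60.6), while Spry1, a feedback inhibitor of receptor tyrosine kinases, was 3.52-fold lower (151, 167 and 588). The kinase gene Jak2, which relays cytokine signals, had its highest signal in TSPCs-7d (212, 985 and 338, 2.91-fold higher). Deptor, a protein that binds and restrains mTOR, was 2.66-fold higher (1086, 1217 and 458). On the TGF-β list of 31 genes, the ligands Tgfb1 (307, 380.3 and 397), Tgfb2 (4849, 5333 and 5941) and Tgfb3 (6541, 5296 and 8292) were within 2-fold. The one gene past it was Lrrc32, which displays latent TGF-β at the cell surface, 4.06-fold lower in TSPCs-7d (136, 289 and 1173).

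In the Wnt list, 1 of 44 genes was higher and 3 lower. Lef1, a nuclear factor through which Wnt signals act, was 2.76-fold higher in TSPCs-7d (175, 274 and 99) and 2.22-fold in its other probe set. The ligand Wnt4 was 5.11-fold lower (135, 95.7 and 489), and the secreted antagonists Sfrp4 (2.15-fold, 269, 179.8 and 386) and Wif1 (2.03-fold, 80.5, 96.5 and 196) were lower by about the cutoff. From the Notch pathway, the target gene Hey2 was 4.02-fold higher (134, 319.5 and 79.5), and its relative Hey1 lay at 1.76-fold (126, 183 and 104). Tead2, a partner of the Hippo cofactors, was 3.28-fold higher (501, 750.4 and 229).

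The insulin-like growth factor system had the highest median log2 ratio outside the cell cycle (0.21), with 1 higher and 1 lower of 25 genes. Igfbp3, a binding protein that holds the factors in the extracellular space, was 3.38-fold lower in TSPCs-7d (505, 644 and 2180.2). The RNA-binding proteins Igf2bp1 (117, 72.4 and 36.9), Igf2bp2 (928, 580.2 and 303) and Igf2bp3 (519, 317 and 107), which are known from fetal cells, each had a higher signal in TSPCs-7d than in TSPCs-56d. Of these, Igf2bp3 was past the cutoff at 2.97-fold, and its other probe sets gave 1.10-fold the other way and 2.42-fold. Imprinted genes showed 3 higher of 23, namely Nnat, a small membrane protein (5.59-fold, 1970.5, 1339 and 239), Plagl1, a zinc finger factor (4.67-fold, 615, 305 and 65.3), and Mest (2.91-fold, 178, 150.4 and 51.8). In all 3 the TSPCs-1d signal was the highest. The 1 lower gene of that list was Dcn, which is better known as a matrix gene, and Igf2 (188, 194 and 240) and H19 (243, 301 and 353) stayed within 2-fold.

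Among transcription factors, Eya1, a cofactor of homeobox proteins in muscle and connective tissue, had the largest fold of the bright higher genes. Its signals were 993, 814 and 87, 9.35-fold higher in TSPCs-7d. Mecom, a zinc finger factor, was 7.01-fold higher (199, 489 and 69.7), though 1.24-fold in its other probe set. Dach1 was 4.16-fold higher (467, 327 and 78.7). Smaller differences on this side were those of Hoxd10, a posterior homeobox gene (2.47-fold, 156, 176 and 71.3), Sox11 (2.08-fold, 293, 255 and 122) and the osteoblast factor Dlx5 (2.12-fold, 109.7, 148 and 69.5). Hoxd10 was the 1 of 22 Hox genes past the cutoff. On the lower side were Tshz2 (4.76-fold, 42.9, 70.0 and 333), the growth-restraining factor Klf4 (3.39-fold, 271, 219 and 743) and the orphan receptor Nr4a1 (2.74-fold, 404, 247 and 677).

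The immune genes past the cutoff lay mostly on the lower side. Over 10 immune lists, 32 of 355 genes were lower in TSPCs-7d (9.01%) and 4 higher (1.13%), against 1.72% and 2.1% of all genes. The other 319 lay within 2-fold, and the median log2 ratio of the 355 genes was −0.21, with 267 below 0 and 88 above. Il33, a nuclear cytokine released by damaged cells, was 8.90-fold lower (128, 92 and 819) and 7.67-fold in its other probe set. Il1a, another member of the interleukin 1 family, was 4.90-fold lower (171, 157 and 767) and Il15 2.92-fold lower (147, 88.6 and 258). In the interleukin list 4 of 47 genes were lower and 0 higher.

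Of 44 chemokines and chemokine receptors, 5 were lower and 0 higher. Ccl7, which attracts monocytes, had signals of 1058, 1182 and 6449, 5.46-fold lower in TSPCs-7d, and Ccl20 274, 195 and 948, 4.85-fold lower. The decoy receptor Ackr3 was 3.09-fold lower (934, 365 and 1126). The related chemokine Ccl2 lay at 1.88-fold lower (4509, 6045 and 11379), within the cutoff. In the TNF list, Tnfrsf11b (osteoprotegerin), which restrains bone resorption, was 2.84-fold lower (2395, 1334 and 3788) and Relt 4.38-fold lower (387, 98.8 and 433).

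The complement list held 7 lower genes of 37 and 1 higher. C1r and C1s, the paired proteases that start the classical pathway, were 3.12-fold (391, 654 and 2040.2) and 5.80-fold (103, 272 and 1576) lower in TSPCs-7d. The central component C3 was 4.15-fold lower (76.4, 80.4 and 334). Masp1, a protease of the lectin pathway, was 12.9-fold lower (204, 110.3 and 1428), but its other probe sets gave 1.23-fold and 2.18-fold. The inhibitors were lower along with the proteases: Serping1 by at least 3.61-fold (27.5, 35.3 and 177) and Cd55 by 5.05-fold (234, 313 and 1579.9; 5.43-fold in its other probe set). The remaining genes past the cutoff, C1qtnf3 (3.11-fold higher, 305, 282 and 90.6) and C1qtnf7, are relatives of C1q by sequence and not complement factors.

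Some genes of protease inhibitors, serpins and prostaglandin enzymes were lower in TSPCs-7d as well. The list of coagulation, fibrinolysis and serpins held 6 lower genes of 40 and 1 higher. Tfpi2, an inhibitor of tissue proteases, was 4.19-fold lower (109, 160.3 and 673). The serpin genes Serpinb9 (3.55-fold, 2473, 1078 and 3828) and Serpinf1, which encodes the antiangiogenic protein PEDF (2.08-fold, 2638, 3826 and 7964), were lower. Of 27 prostaglandin genes, 2 were lower: the synthases Ptges (at least 8.25-fold, 27.4, 37.9 and 403; 1.98-fold in its other probe set) and Ptgs1, cyclooxygenase 1 (3.40-fold, 262, 480 and 1634; signals of 40.3, 37.3 and 66.6 in its other probe set). Interferon response genes (3 lower and 1 higher of 47) and antigen presentation genes (2 lower and 0 higher of 33) had few members past the cutoff. Beside these results, the leukocyte markers Cd68 (122, 109 and 143), Cd14 (162, 157 and 155) and Itgam (36, 32 and 33.7) were low or level. Btk (189, 163 and 520.5) and Lcp1 (63.5, 55.3 and 168), genes known from leukocytes that stood on no list and were picked after their values had been seen, were 3.19-fold and 3.05-fold lower in TSPCs-7d. The part of such cells in the immune genes was not tested.

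Genes of contraction lay on both sides. Tnnc1, the troponin C of slow and cardiac muscle, was 7.48-fold higher in TSPCs-7d and much higher again in TSPCs-1d (6489, 951 and 127), and phospholamban (Pln), a regulator of the calcium pump, was 2.07-fold higher (5884, 2729 and 1321). Skeletal muscle actin (Acta1) was 6.23-fold lower (1772, 855 and 5327). Smooth muscle myosin (Myh11) was 3.03-fold lower (2186, 1671 and 5067), with 1.31-fold in its other probe set. Mustn1, a nuclear protein of muscle and skeleton, was 5.08-fold lower (973, 299.5 and 1523). Acta1, Mustn1 and Myh11 had their lowest signal in TSPCs-7d. Over both muscle lists, 1 of 89 genes was higher and 4 were lower.

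Of the cell contact and guidance genes past the cutoff, more lay on the higher side. Over 6 adhesion lists, 9 of 190 genes were higher (4.74%) and 4 lower (2.11%), against 2.1% and 1.72% of all genes. The median log2 ratio of the 190 genes was −0.09, with 112 below 0 and 78 above. N-cadherin (Cdh2), which joins mesenchymal cells, was 2.27-fold higher in TSPCs-7d (1083, 1022 and 450.4), while its remaining probe sets gave 1.08-fold and 2.28-fold, and Cdh22 was 2.89-fold higher (801, 694 and 241). Connexin 40 (Gja5), a gap junction protein, was 4.87-fold higher (1715, 522 and 107). The guidance molecule Sema3d (2.48-fold, 522, 379 and 153) and the Slit receptor Robo2 (2.12-fold, 681, 699 and 329.8) were higher, whereas netrin 1 (Ntn1) was 2.13-fold lower (218, 284 and 607), but its further probe sets gave 1.14-fold and 1.04-fold. Integrin β3 (Itgb3) was the 1 of 23 integrin genes past the cutoff, 3.33-fold lower (173, 201 and 669). Genes best known from neurons lay on both sides. The membrane protein gene Gpm6b (4.56-fold, 189, 482 and 106) and the microtubule protein gene Map2 (3.08-fold, 154, 184 and 59.9) were higher. The calmodulin regulator gene Pcp4 (3.44-fold, 3475, 341 and 1174) and the stathmin gene Stmn2 (2.01-fold, 449.6, 142 and 286) were lower. The neuron and Schwann cell list as a whole had 4 higher and 2 lower of 28 genes, with 21 genes below 0 and a median log2 ratio of −0.14.

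Several genes of hormone and lipid handling were lower in TSPCs-7d. Hsd11b1, the enzyme that regenerates active glucocorticoid inside cells, had signals of 304, 694 and 4538, 6.54-fold lower. The retinoid response genes Rarres1 (3.99-fold, 1142, 459 and 1829) and Rarres2 (3.98-fold, 133, 144 and 574), which encodes chemerin, were lower. In the list of retinoid and glucocorticoid response genes 5 of 26 were lower and 0 higher, while the glucocorticoid targets Fkbp5 (122, 244 and 216) and Sgk1 (712, 589.7 and 784) stayed within 2-fold. Lipoprotein lipase (Lpl) was 5.45-fold lower (542, 153 and 834), and the cholesterol exporter Abca1 2.35-fold lower (389.5, 275 and 646; signals of 179, 176 and 264 in another probe set). The other 65 of 66 genes of fatty acid uptake and storage lay within 2-fold.

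Antioxidant enzymes gave 6 lower and 0 higher of 56 genes, with a median log2 ratio of −0.10. The secreted glutathione peroxidase 3 (Gpx3) was 7.89-fold lower in TSPCs-7d (316, 277 and 2189), the farthest of the list. The secreted superoxide dismutase 3 (Sod3) was 2.39-fold lower (1122, 1409.8 and 3372). The metallothioneins Mt2A (2.76-fold, 593, 476 and 1314) and Mt1 (2.15-fold, 121, 99.7 and 214), small metal-binding proteins of similar sequence, whose probes may share transcripts, were lower together. The 24 glutathione S-transferase genes had 0 members past 2-fold.

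All 62 genes of the citrate cycle and respiratory chain lay within 2-fold, with a median log2 ratio of −0.01. Of 44 glycolysis and hypoxia genes, 3 were lower: the lactate exporter Slc16a3 (3.94-fold, 667, 178 and 701), Ndrg1 (4.34-fold, 242, 195 and 846; 1.40-fold in its other probe set) and adrenomedullin (Adm, 3.17-fold, 118, 110.3 and 349). Slc16a3 and Bnip3 (1904, 1117 and 2117) had their lowest signal in TSPCs-7d. Slc16a3 is a transporter, and Ndrg1 and Adm are known from the response to hypoxia, so 0 glycolytic enzymes passed the cutoff. The median log2 ratio of the glycolysis and hypoxia list was −0.22, with 40 of its 44 genes below 0. Among other enzymes, arginase 1 (Arg1) was 5.36-fold lower (346, 529 and 2835) and the guanine deaminase Gda 7.23-fold lower (169, 218 and 1574; 3.70-fold in its other probe set). Carbonic anhydrase 3 (Car3), an enzyme of muscle and fat, was 5.48-fold higher in TSPCs-7d and highest in TSPCs-1d (5356, 2536 and 463), and 2.01-fold in its other probe set.

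Solute carriers had a smaller share past the cutoff than all genes. Of 302 solute carriers, 3 were higher and 3 lower (0.993% each way, against 2.1% and 1.72% of all genes), among them the cationic amino acid transporter Slc7a3 (3.31-fold higher, 408, 371 and 112). On the list of ion channels, which also held a water channel, 4 of 91 genes were higher (4.4%) and 2 lower (2.2%). The family of 75 potassium channel genes had 1 higher and 0 lower. The water channel Aqp1 was 2.12-fold higher (2806, 4388 and 2071) and Ano5, a membrane protein of muscle and bone, 2.71-fold higher (150, 143 and 52.6). Trpv2, a calcium channel, was 3.90-fold lower (166, 139 and 542). Among G-protein coupled receptors, Lpar3, a receptor of lysophosphatidic acid, was at least 2.84-fold higher (184, 139 and 43) and the adenosine receptor Adora2b 3.43-fold lower (59.9, 67 and 229.9).

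Of the 71 lists outside the cell cycle, 25 held lower genes alone, 13 higher genes alone, 26 both and 7 none. Their medians ran from −0.37 to 0.21, and 59 of them lay below the median of all genes. All 13 reference genes lay within 2-fold, with a median log2 ratio of −0.01. Of 65 families defined by gene name, 13 had no member past 2-fold, among them the 58 cytochrome P450 genes, of which 28 were dim on both arrays.

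A further look at the differences came from probe sets that the choice of 1 probe set per gene had left out. For 71 higher genes there was a next probe set that was not dim on both arrays, and it had the same sign in 63, lay past 1.5-fold the same way in 47 and past 2-fold in 37. For 55 lower genes it had the same sign in 54, lay past 1.5-fold in 38 and past 2-fold in 20. In 0 cases did it pass 2-fold the other way. The size of the difference thus depended on the probe set for some genes. Examples are Mecom, Igf2bp3, Car3 and Cdc20 on the higher side, and Masp1, Bmp6, Ptges, Ndrg1, Ntn1, Gda and Susd2 (8.35-fold lower, 42.4, 50.4 and 421; 1.26-fold in its other probe set) on the lower side. Both probe sets of a gene come from the same RNA, so they do not replicate the culture.

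**Figure D5:**
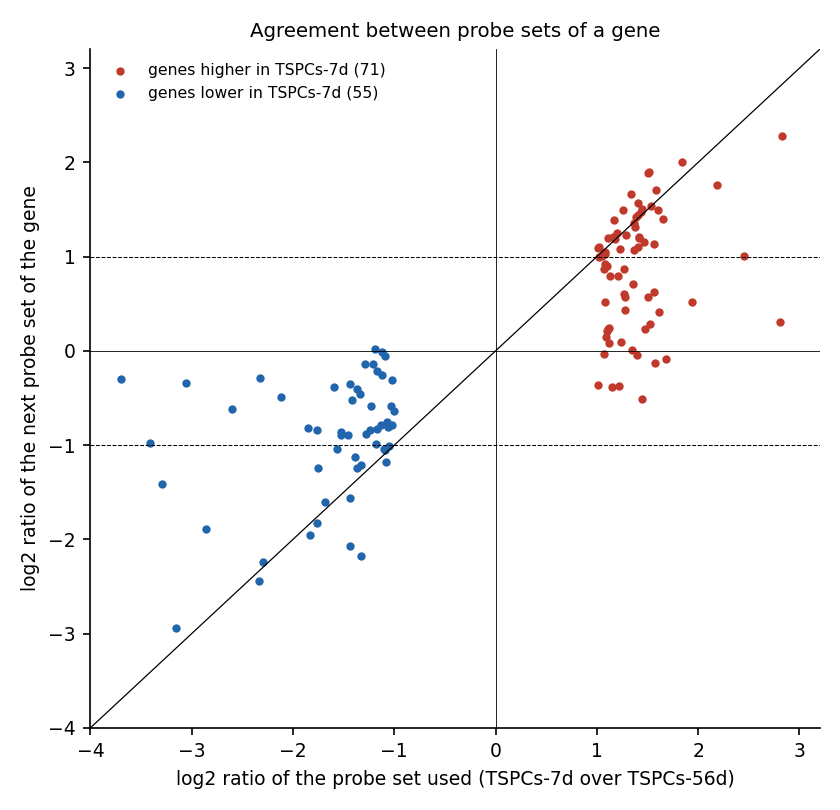
Log2 ratio (TSPCs-7d over TSPCs-56d) of the next probe set of a gene (vertical) against that of the probe set used (horizontal), for 71 higher and 55 lower genes. The diagonal marks equal ratios and dashed lines 2-fold. The points lie mostly between the horizontal zero line and the diagonal, and 0 of them pass 2-fold in the opposite direction.

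The cutoff itself was arbitrary near its edge. The bright higher genes nearest to it were Nes (ratio 2.00) and Cenpj (2.00) inside and Cdca7 (2.00) and Chaf1a (2.00) outside. On the lower side these were Akr1b8 (2.00) and Stmn2 (2.01) inside and Oplah (2.00) and Eppk1 (1.98) outside, as folds of TSPCs-56d over TSPCs-7d.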

How the data were processed

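RNA of 3 cultures was hybridised to Affymetrix Rat Genome 230 2.0 arrays, 1 array per age. The deposited values are linear signal intensities, 1 per probe set and array. The submitters' processing notes name MAS5, and the study's methods name MAS5 and RMA for normalization by the authors. No further normalization was applied here. The platform's annotation paired 20826 probe sets with 1 gene symbol, 436 with several and 9780 with none. They were matched to RefSeq genes (20758 matched), and the probe set with the highest mean signal over the 3 arrays stood for its gene.

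Ratios of linear signals were taken with a cutoff of 2-fold, without a test, in Python 3.11.15 with numpy 2.4.6, pandas 2.3.3, statsmodels 0.14.6 (loess) and matplotlib 3.10.9. The number of arrays limits the precision. The comparison, the 74 gene lists, the 65 families and the motifs were chosen with earlier results of these data known. Genes named were the 30 highest and 30 lowest ratios among genes brighter than the median signal (110.1), up to 6 members per list and direction, up to 4 per family and direction, cell type markers, and members of described families within 2-fold. Btk, Lcp1, Mki67, Ezh2, Deptor, Pln, Xdh and the cell cycle genes with promoters shown fall outside that rule. They were chosen after their values were seen. Also outside it are Edil3, C1qtnf7, some genes nearest to the cutoff, and the genome neighbours Cdkn3, G0s2, Pdlim4, Rnf181 and Vamp5. The ratio and list steps were checked on simulated signals. Alternatives changed the scaling, floor, pseudocount, probe set and cutoff.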

Additional observations from a re-analysis of the deposited data

How the results depend on the processing

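The counts of genes past 2-fold were recomputed under 13 alternatives. With a cutoff of 1.5-fold, 709 genes were higher and 774 lower in TSPCs-7d, and with 3-fold 64 and 92. Counting probe sets in place of genes gave 522 and 407. The lower genes numbered 156 with all signals raised to the median, 154 with a pseudocount of 32, and 160 among genes of mean signal above the median. The higher genes stayed within 1.5 times of 298 in those 3 settings. The share of calls on the higher side was 55.0% at first, 62.1% with each array divided by its median, and 41.0% at 3-fold. When the probe set was chosen by the mean of the arrays of TSPCs-7d and TSPCs-56d, the log2 ratio of Igf2bp3 became −0.13 and that of Plcxd2 0.017, against first values of 1.57 and −1.19, because another probe set stood for the gene. Of the list medians beyond 0.14 in size, 0 changed sign under any alternative, and 49 recomputed list medians moved by more than 0.14. For the 203 named genes past 2-fold, 1522 recomputed log2 ratios lay within 0.44 of the first value, 100 moved farther and the 2 given here changed sign. Low signals bear on these counts. For 30 higher and 25 lower genes both signals were dim, and for 35 and 50 more the weaker signal alone was dim. With dim signals raised to the dim level, 243 genes were higher and 187 lower. No paired analysis was possible because each age has 1 array.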

Other observations

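Some genes past 2-fold lie next to each other in the genome. In the gene order of RefSeq, 7 adjacent pairs of protein-coding genes were both higher in TSPCs-7d and 11 pairs both lower. This is a description without a test. Adjacent pairs of all measured genes were not counted, so whether these are more than the shares of 2.1% and 1.72% would give is not known. The pairs include Mt1 and Mt2A, whose probes may share transcripts. Dscc1, a clamp loader subunit (132, 448 and 183), Deptor (1086, 1217 and 458) and Col14a1 (765, 3702 and 522) follow each other on chromosome 7, and all had their highest signal in TSPCs-7d. On the same chromosome the proteoglycan genes Dcn and Lum are neighbours. Bmp4 lies beside Cdkn3, a phosphatase of the cell cycle (774, 2048 and 982), on chromosome 15. On the lower side, C1r and C1s are neighbours on chromosome 4, as are Tmem150a (915, 487 and 1044), Rnf181 (1784, 1177 and 2957) and Vamp5 (238, 227 and 822). Hsd11b1 lies beside G0s2, an inhibitor of fat breakdown (107, 103 and 233), and P4ha2 beside Pdlim4, a protein that binds the cytoskeleton (692, 513 and 1034).

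A few genes outside the families of the report had large differences. Dync1i1, a dynein subunit, was 5.29-fold higher in TSPCs-7d (569, 711 and 134), and Fxyd6, a regulator of the sodium pump, 5.21-fold higher (853, 349 and 67). Slfn4 was 4.51-fold higher (510.3, 902 and 199.8). The small GTPase gene Rasl12 was 6.40-fold lower (170.1, 172 and 1099), and xanthine dehydrogenase (Xdh) was at least 4.16-fold lower (42.1, 44.9 and 203).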
